A study of Mus musculus with 96 samples.

Results

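Apolipoproteins are the protein parts of the particles that carry lipid in blood, and Mttp encodes the microsomal triglyceride transfer protein, which loads lipid onto newly made apolipoprotein B. The 10 genes described here (Apoa1, Apoa2, Apoa4, Apoa5, Apob, Apoc1, Apoc3, Apoe, Apom and Mttp) were taken by name from the 56748 genes of a count table. In the liver, apolipoprotein B and the transfer protein build very low density lipoproteins, the apolipoproteins of the A-I, A-II and M kinds belong mainly to high density lipoproteins, and small exchangeable apolipoproteins move between particles in plasma. Among the exchangeable ones, C-I and C-III slow the removal of triglyceride-rich particles, A-V favours their breakdown by lipoprotein lipase, and E is a ligand of receptors that take particles up. In brain, apolipoprotein E is made largely by astrocytes and carries lipid between cells.

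RNA was sequenced from liver, skeletal muscle and cerebral cortex of mice fed ad libitum (AL) or kept on intermittent fasting (IF), to compare the diets in each tissue. The male mice were C57BL/6. From 6 weeks of age they were fasted for 16 h of each day for 4 months, or fed freely over that time. The daily fast covered the dark phase, so the male IF mice could eat only in the light phase. The male mice were killed in the morning, which the paper describes as the end of the scheduled fast. The hours it gives for killing ran past that end. The labels also list female AL and IF mice, whose strain, age and fasting regimen are not given in the sources used here. There were 8 mice in each group of diet and sex, numbered 1 to 8 (male AL), 9 to 16 (male IF), 25 to 32 (female AL) and 33 to 40 (female IF), and each gave 3 libraries, 96 in all. The replicates are separate mice, but the same mouse number recurs in the 3 tissues. All mice numbered 25 to 40 are female, so sex and any difference in how both sets of mice were kept or killed cannot be told apart, and the time at which each mouse was killed is not given.

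The sex labels were checked with Xist and 4 genes of the Y chromosome, and 95 of 96 libraries matched. The library labelled cortex of male AL mouse 1 held 0 counts of the Y genes and 213 CPM (the count of a gene scaled to the total of its library) of Xist, against at most 0.612 CPM of Xist in the other male libraries, and it was left out, which leaves 7 male AL cortex libraries. Values with it included are given with the alternatives. Between 26097314 and 49838004 reads were counted on genes in the 95 libraries used, with medians of 36077590.5 in liver, 36668740 in muscle and 34545188 in cortex. The tissue labels were matched by their markers. The 8 hepatocyte markers, led by Alb, summed to a mean of 48660 CPM in male AL liver, against 0.823 CPM in muscle and 1.07 CPM in cortex. The 5 muscle fibre markers, led by Acta1, summed to 133258 CPM in male AL muscle, and the 5 neuron markers, led by Snap25, to 6070 CPM in male AL cortex.

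The members differed widely in level, and their share of the counts was highest in liver. Together they took 7.11% ± 0.636 (SD, n = 8) of all counts in male AL liver and 9.17% ± 0.825 (n = 8) in male IF liver. In female liver their share was 7.52% ± 1.44 (n = 8) in AL and 8.43% ± 0.998 (n = 8) in IF mice. In male AL mice they took 0.272% ± 0.0425 (n = 7) of counts in cortex and 0.0155% ± 0.00374 (n = 8) in muscle, nearly all of it from Apoe. The order of the genes' levels is given after division by gene length, as RPKM (CPM divided by gene length in kilobases), while ratios of CPM between 2 genes serve only to compare the groups of mice. On that scale Apoa2 led in male AL liver with a mean of 29259 RPKM, followed by Apoc1 (13963 RPKM), Apoe (11608 RPKM), Apoa1 (11111 RPKM) and Apoc3 (4542 RPKM). Apoa5 (152 RPKM) and Apob (93.2 RPKM) came next, and Apom (30.1 RPKM), Mttp (21.0 RPKM) and Apoa4 (20.6 RPKM) were lowest. Neighbours whose ranges from lowest to highest library overlapped in this order were Apoc1 and Apoe, Apoe and Apoa1, Apoa5 and Apob, Apom and Mttp, and Mttp and Apoa4. In male IF liver the order on the RPKM scale had Apoe (21896 RPKM) ahead of Apoc1 (11769 RPKM), and Apom (217 RPKM) ahead of Apob (106 RPKM), with no overlap of either pair.

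**Figure D1:**
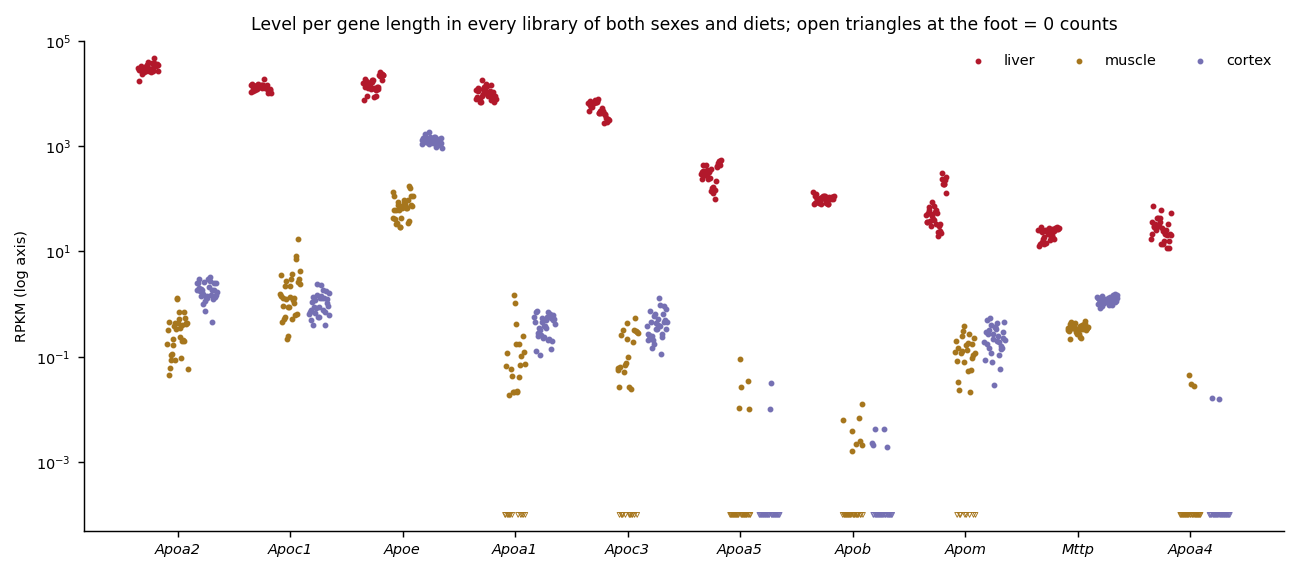
RPKM on a log axis of each of the 10 genes in every liver, muscle and cortex library of both sexes and diets, 1 point per library, with open triangles at the foot for libraries without a count. Liver lies above both other tissues for every gene, and Apoe is the member with the highest level in muscle and in cortex.

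Apob, the scaffold of very low density lipoproteins, was not called in male liver. Its level ran from 1093 to 1603 CPM (median 1250) in AL mice and from 1395 to 1586 CPM (median 1471) in IF mice. The IF libraries all lay inside the AL range and were closer to each other, with an SD of 63.6 CPM against 202 CPM. The log2 fold change of IF against AL was 0.09 with a 95% interval of -0.10 to 0.29, and its adjusted p in edgeR's quasi-likelihood test with Benjamini-Hochberg adjustment over 16204 genes was 0.468.

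Mttp, whose product works with apolipoprotein B in the endoplasmic reticulum, ran from 105 to 174 CPM (median 121) in male AL liver and from 149 to 181 CPM (median 170) in male IF liver. AL mice 1 and 5 lay within the range of the IF mice and the remaining 6 AL mice below all of them. Mttp rose by 0.28 ± 0.11 (SE) on the log2 scale, with an adjusted p of 0.0421 in edgeR's quasi-likelihood test with Benjamini-Hochberg adjustment. This was the highest adjusted p among the members called: over 9 other settings the adjusted p ran from 0.0345 to 0.173 and passed the threshold in 2, and it was 0.069 with relative log expression (RLE) scaling and 0.0579 in DESeq2. Mttp overlaps Trmt10a on the opposite strand, and the counts of Trmt10a came to 3.76% of those of Mttp in liver.

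Among the apolipoproteins of high density lipoproteins, Apom had the largest response. It ran from 19.8 to 53.7 CPM (median 28.4) in male AL liver and from 131 to 315 CPM (median 212) in male IF liver. Every IF mouse lay above every AL mouse, and the highest AL value belonged to mouse 2, apart from the rest, of which the highest was 34.4 CPM. Apom rose by 2.78 ± 0.19 (SE) on the log2 scale, a 6.86-fold change, with an adjusted p of 1.71e-10 in edgeR's quasi-likelihood test with Benjamini-Hochberg adjustment.

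Apoa1, which encodes the main protein of high density lipoproteins, ran from 11081 to 17885 CPM (median 12769) in male AL liver and from 8348 to 12961 CPM (median 10485) in male IF liver. The groups overlapped, with IF mice 9, 13, 15 and 16 below all AL mice and AL mice 2, 7 and 8 above all IF mice. Apoa1 fell by 0.48 ± 0.13 (SE) on the log2 scale (adjusted p 0.005, edgeR's quasi-likelihood test with Benjamini-Hochberg adjustment). Apoa2, the second protein of these particles, ran from 13481 to 20354 CPM in AL mice and from 14573 to 24737 CPM in IF mice, and its change of 0.19 (interval -0.06 to 0.45) was not called, with an adjusted p of 0.238 in the same edgeR test. The ratio of Apoa1 to Apoa2 CPM in the same library was 0.890 ± 0.217 (SD, n = 8) in AL and 0.552 ± 0.0957 (n = 8) in IF males. Apoa4, which is made mostly in intestine, ran from 25.2 to 50.6 CPM in AL and from 21.3 to 98.8 CPM in IF male liver, and its change of 0.11 (interval -0.49 to 0.72) was not called (adjusted p 0.791, edgeR with Benjamini-Hochberg adjustment).

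The exchangeable apolipoproteins of triglyceride-rich particles moved in opposite directions. Apoc3 ran from 4255 to 5263 CPM (median 4588) in male AL liver and from 2842 to 4098 CPM (median 3296) in male IF liver, and Apoc1 from 9299 to 14047 CPM (median 9761) and from 7495 to 10519 CPM (median 8746). All IF mice lay below all AL mice for Apoc3, while the Apoc1 groups overlapped and AL mouse 6 stood above the rest at 14047 CPM. Apoc3 fell by 0.54 ± 0.12 (SE) on the log2 scale with an adjusted p of 0.00109, and Apoc1 fell by 0.35 ± 0.13 (SE) with an adjusted p of 0.0278, both in edgeR's quasi-likelihood test with Benjamini-Hochberg adjustment.

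Apoa5 went the other way. It ran from 249.9 to 558 CPM (median 372) in male AL liver and from 996 to 1370 CPM (median 1190) in male IF liver. The lowest IF mouse was far above the highest AL mouse. Apoa5 rose by 1.55 ± 0.13 (SE) on the log2 scale, with an adjusted p of 2.43e-09 in edgeR's quasi-likelihood test with Benjamini-Hochberg adjustment. The ratio of Apoa5 to Apoc3 CPM in the same library was 0.0838 ± 0.0199 (SD, n = 8) in AL and 0.361 ± 0.0704 (n = 8) in IF males, with no overlap between the groups.

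Apoe, the receptor ligand, ran from 18482 to 28321 CPM (median 25808) in male AL liver and from 37929 to 55079 CPM (median 46933) in male IF liver. No IF mouse fell within the AL range. Apoe rose by 0.82 ± 0.13 (SE) on the log2 scale, with an adjusted p of 2.36e-05 in edgeR's quasi-likelihood test with Benjamini-Hochberg adjustment. The ratio of Apoe to Apoc1 CPM was 2.42 ± 0.444 (SD, n = 8) in AL and 5.38 ± 0.637 (n = 8) in IF males.

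**Figure D2:**
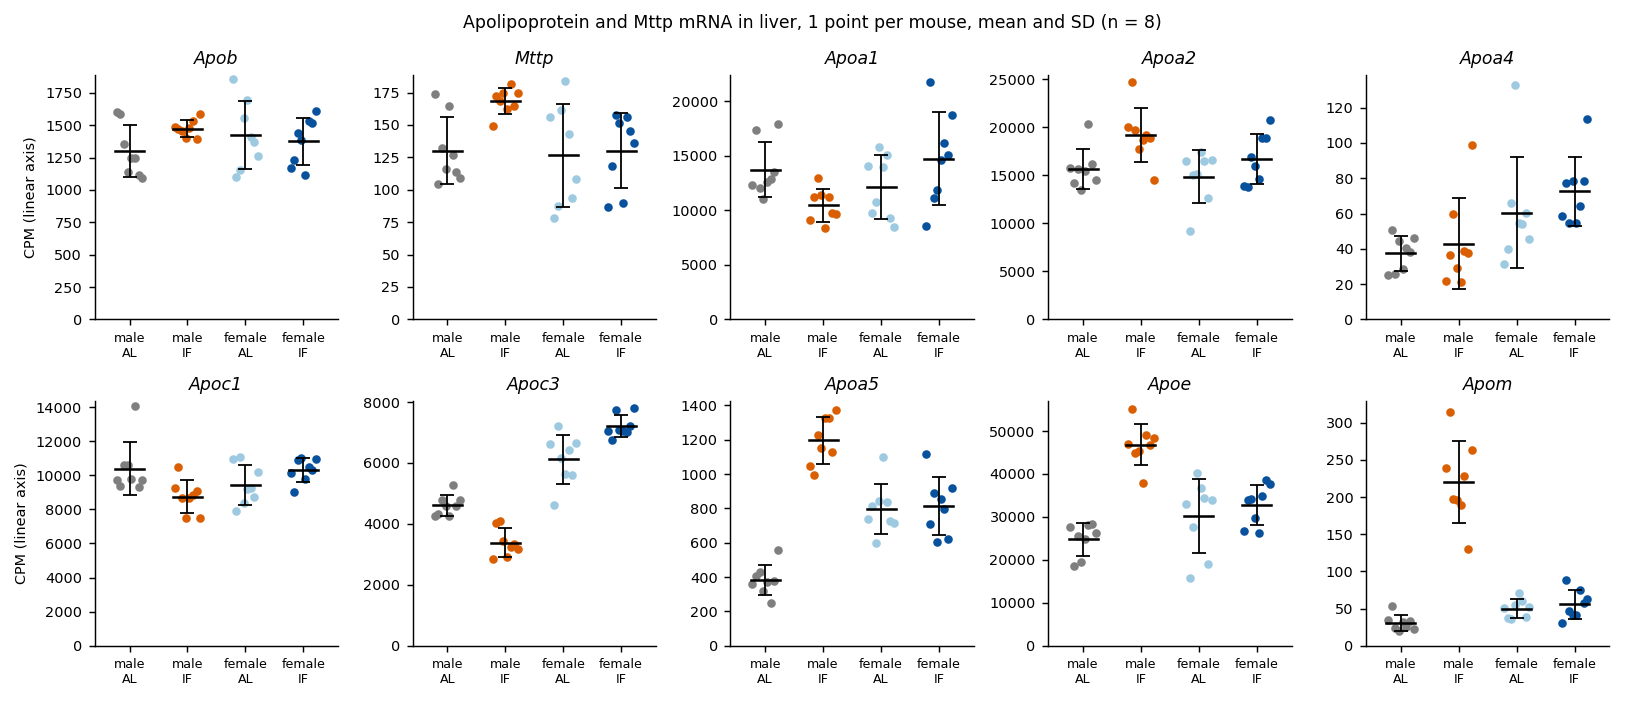
CPM on linear axes of the 10 genes in liver, with 1 point per mouse and bars for mean and SD (n = 8), in male AL, male IF, female AL and female IF mice. Apoa5, Apoe and Apom lie higher in all male IF mice than in any male AL mouse and Apoc3 lower, while the female groups overlap for every gene.

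Counted over the members, 4 of 10 rose and 3 of 10 fell in male liver, 7 of 10 called, beside 44.6% of the 16204 genes tested (23.5% higher and 21.1% lower in IF mice). The groups did not overlap for 4 of the 10 members, against 14.6% of all genes tested. The members' median log2 fold change was 0.15 and that of all genes tested 0.06. The share of the members called is thus read against a tissue in which a large share of all genes passed the same test.

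Markers of other cells moved with diet in some of these libraries. In bulk tissue, fewer cells of a type and less RNA per cell cannot be told apart. The 5 erythrocyte markers, led by Hba-a1, summed to 362 to 956 CPM in male AL liver and to 667 to 6879 CPM in male IF liver, with mouse 9 highest, and 3 of the 5 were called higher in IF mice. IF mice 11, 12 and 15 had sums of 667, 702 and 837 CPM, within the AL range. Apom, the member with the largest rise, was at 197, 196 and 131 CPM in these mice, above every AL mouse. Apoa1 lay below every AL mouse in mouse 15 and within the AL range in mice 11 and 12. The mice were picked by their sums, which does not test the part of blood. With the mean log2 level of the erythrocyte list as a covariate, 4284 genes and 3 members (Apoa5, Apoe and Apom) were called in male liver by edgeR, and none of the 3 that fell. Without it 7234 genes were called. The covariate itself differed between the diets, so this fit cannot separate it from diet. The log2 fold change without it was -0.54 for Apoc3, -0.35 for Apoc1, -0.48 for Apoa1 and 0.28 for Mttp. Under that covariate the values were -0.46, -0.45, -0.35 and 0.30 in the same order. Their adjusted p-values by edgeR's quasi-likelihood test with Benjamini-Hochberg adjustment were 0.061, 0.0628, 0.176 and 0.173, against ranges over 9 alternatives of 4.13e-05 to 0.061, 0.00382 to 0.0628, 0.000602 to 0.176 and 0.0345 to 0.173. The male mice were flushed with cold saline before the tissues were frozen, and the part of blood in these changes was not tested further. The 4 endothelium markers, led by Kdr, summed to 39.9 to 60.1 CPM in male AL and 64.3 to 113 CPM in male IF liver, and the 5 fibroblast markers, led by Dcn, to 43.8 to 90.9 CPM and 93.0 to 159.8 CPM. Both sums were higher in every IF mouse than in any AL mouse, with 2 of 4 and 3 of 5 markers called higher, and their part in the members' changes was not tested. The hepatocyte markers, led by Alb, summed to 39445 to 63838 CPM in AL and 37683 to 56316 CPM in IF males, overlapping widely, with 1 of 8 called higher and 1 lower.

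Markers of Kupffer cells, the macrophages of liver, were high in some libraries with high Apoa4 but not in all. The 6 markers, led by Clec4f, summed to 608 CPM in male IF mouse 16 and to at most 278 CPM in the other male liver libraries, with 1 of 6 called higher in IF males, and that mouse had the highest Apoa4, 98.8 CPM. Female AL mouse 28 had a sum of 902 CPM and an Apoa4 level of 133 CPM, the highest of all liver libraries on both measures, while female IF mouse 40, next in Apoa4 at 113 CPM, had a sum of 301 CPM, within the range of the other females. Without male IF mouse 16, Apoa4 had a log2 fold change of -0.18 and 5 members were called, since Apoc1 (adjusted p 0.053) and Mttp (adjusted p 0.0626, both by edgeR with Benjamini-Hochberg adjustment) then missed the threshold. Over the 9 alternatives these adjusted p-values ran from 0.00382 to 0.0628 for Apoc1 and from 0.0345 to 0.173 for Mttp. The part of these cells in the levels was not tested.

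In female liver none of the 10 members was called, as was the case for 0 (0%) of 15938 genes in edgeR's quasi-likelihood test, while 919 genes had an unadjusted p under 0.05 and DESeq2 called 6. AL and IF libraries overlapped for all 10 members, against non-overlap in 0.0188% of the genes tested. Apoc3 ran from 4618 to 7199 CPM (median 6297) in female AL and from 6755 to 7791 CPM (median 7064) in female IF liver. All IF females lay above the AL median, and mice 35, 39 and 40 above every AL female. Its change of 0.27 (interval 0.02 to 0.52) had an unadjusted p of 0.0428 and did not pass the adjustment (adjusted p 0.85, edgeR). Apom ran from 36.2 to 70.6 CPM (median 51.2) in AL and from 30.9 to 89.0 CPM (median 52.3) in IF females. Apoa5 ran from 601 to 1102 CPM (median 778) and from 605 to 1115 CPM (median 826), and Apoe from 15854 to 40157 CPM (median 33561) and from 26339 to 38646 CPM (median 34096). The diets overlapped in all 3 genes, with a wider range of Apom in IF and of Apoe in AL females, and Apoa5 in both female groups lay above every male AL mouse and, but for mice 29 and 33, below every male IF mouse. The 10 estimates ran from -0.00 for Apob to 0.32 for Apoa1.

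**Figure D3:**
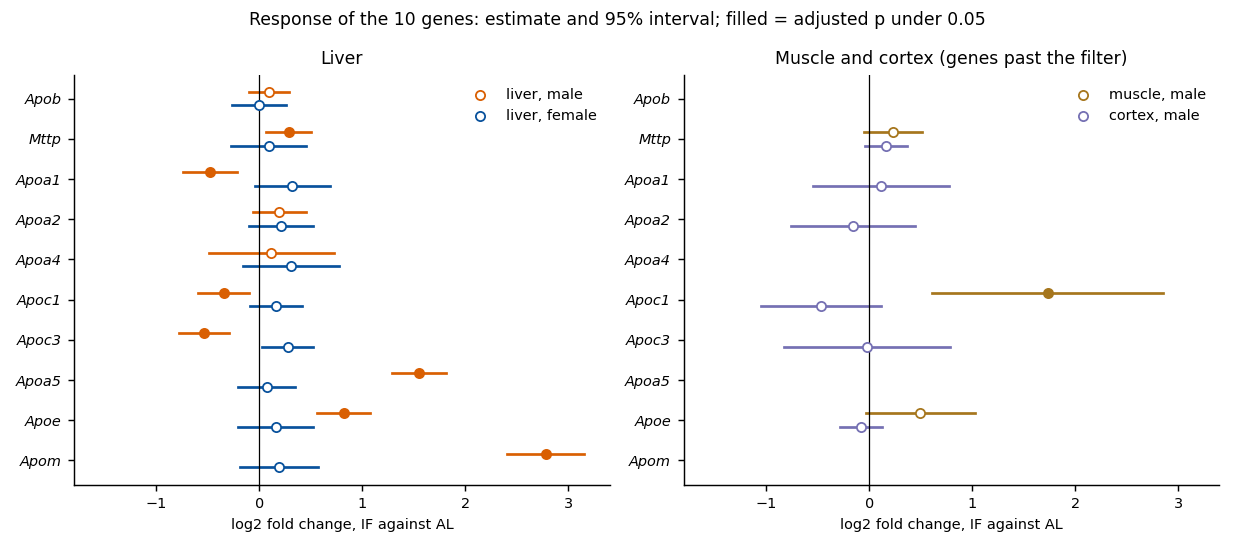
Log2 fold change of IF against AL mice with 95% intervals for each member in male and female liver and in male muscle and cortex, filled where the adjusted p was under 0.05. In liver 7 genes are called in males, 4 to the right and 3 to the left of 0, and none in females, and Apoc1 in male muscle is the only call outside liver.

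Whether the sexes differed in their response was tested itself, as the interaction of sex and diet in liver. Of the 10 members, 6 were called, against 23.7% of 17658 genes tested. The difference was positive, that is a log2 fold change higher in females than in males, for 3 members against 12.8% of genes, and negative for 3 against 10.9%. It was negative for Apom (-2.56 ± 0.28 SE, adjusted p 4.18e-08), Apoa5 (-1.44 ± 0.20, adjusted p 9.36e-07) and Apoe (-0.63 ± 0.23, adjusted p 0.0463), by edgeR's quasi-likelihood test with Benjamini-Hochberg adjustment. These are the 3 genes with the largest rise in males. It was positive for Apoc3 (0.84 ± 0.17, adjusted p 0.00038), Apoa1 (0.83 ± 0.23, adjusted p 0.00693) and Apoc1 (0.54 ± 0.18, adjusted p 0.0222) in the same edgeR fit. These are the 3 that fell in males. For Mttp the difference of -0.16 had an interval of -0.60 to 0.28 and an adjusted p of 0.657 in that edgeR fit, so its response was not shown to differ between the sexes. The remaining members, Apoa2, Apoa4 and Apob, were not called either.

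In muscle, 7 of the 10 members had too few counts for the expression filter, and Apoc1, Apoe and Mttp were tested. In male muscle 1 of 3 was called, beside 23% of 15025 genes. Apoc1 ran from 0.386 to 2.78 CPM (median 0.922) in male AL and from 0.494 to 12.6 CPM (median 2.70) in male IF muscle. IF mice 9, 10, 12 and 16 lay above all AL mice, and IF mouse 11 was among the lowest of both groups. Apoc1 rose by 1.73 ± 0.57 (SE) on the log2 scale with an adjusted p of 0.0405 in edgeR's quasi-likelihood test with Benjamini-Hochberg adjustment. Adipocyte markers moved with it: the 5 markers, led by Fabp4, summed to 143 to 515 CPM in AL and 332 to 2489 CPM in IF males, with 4 of 5 called higher in IF mice, and mouse 12 was the highest and mouse 11 the lowest IF mouse in both the sum and Apoc1. With the adipocyte list as a covariate, an alternative chosen after seeing the data, the change of Apoc1 was 0.17 (adjusted p 0.764 in edgeR, against a range of 0.000196 to 0.764 over 7 alternatives, of which 4 kept the call). Whether the Apoc1 counts come from adipocytes was not tested.

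Apoe had the highest RPKM of the members in muscle, and its level was 74.7 to 203 CPM (median 152) in male AL and 82.2 to 379 CPM (median 224) in male IF mice. Its groups overlapped, and the change of 0.50 (interval -0.03 to 1.02) was not called, with an adjusted p of 0.206 in edgeR's quasi-likelihood test with Benjamini-Hochberg adjustment. Mttp was at a median of 2.01 CPM in AL and 2.35 CPM in IF male muscle and was not called (0.23, adjusted p 0.254 in edgeR), and the counts of Trmt10a came to 64.4% of its own there. Apoa4, Apoa5 and Apob were at or near 0 in muscle, with 4, 2 and 1 counts in all over the 8 male AL libraries. Female IF mice 39 and 40 held 68 and 57 counts of Apoa1, more than any other female IF muscle library, beside sums of hepatocyte markers of 2.45 and 4.82 CPM. In female muscle 0 of 3 members tested were called by edgeR, beside 1 gene (0.00653%) of 15308, where 1644 genes had an unadjusted p under 0.05 and DESeq2 called 91. The interaction of sex and diet in muscle was called for 0 of 3 members and 14.2% of 16346 genes by edgeR.

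In cortex, Apoe stood at 2037 to 3204 CPM (median 2733) in male AL and 1977 to 3006 CPM (median 2534) in male IF mice. The ranges of the diets overlapped widely. The change of -0.08 had an interval of -0.28 to 0.13 and an adjusted p of 0.708 in edgeR's quasi-likelihood test with Benjamini-Hochberg adjustment. Of the 10 members 6 were tested (Apoa1, Apoa2, Apoc1, Apoc3, Apoe and Mttp) and 0 were called by edgeR, beside 7.21% of 18462 genes. That share, from 1332 genes called, depends strongly on the settings, and the counts under the alternatives are given with the processing. Mttp ran from 5.99 to 8.57 CPM in male AL and 6.87 to 9.52 CPM in male IF cortex, with counts of Trmt10a at 65.9% of its own. Apoa5, Apob and Apoa4 together had no count in any male IF cortex library. In female cortex 0 of 6 members were called by edgeR, beside 2 genes (0.0109%) of 18403, where 2069 genes had an unadjusted p under 0.05 and DESeq2 called 73. The interaction of sex and diet in cortex was called for 0 of 7 members and 2.03% of 19547 genes by edgeR. The choroid plexus markers, led by Ttr, varied from 5.33 to 4394 CPM over the cortex libraries used.

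The difference in response between tissues of male mice was tested as the interaction of tissue and diet, in a pair of comparisons that share the liver libraries. Between liver and muscle 4 of 10 members were called, beside 33.7% of 21608 genes, and between liver and cortex 3 of 10, beside 30.1%. Apoc1 differed between liver and muscle by -2.14 ± 0.48 (SE), falling in liver and rising in muscle, with an adjusted p of 0.000373 in edgeR's quasi-likelihood test with Benjamini-Hochberg adjustment. This difference was not fitted with the adipocyte or erythrocyte covariate, and Apoc1 was not called in muscle with the first (0.17) or in liver with the second (-0.45). Apoe differed between liver and cortex by 0.87 ± 0.26 (SE), with an adjusted p of 0.00965 in the same test. The other 5 calls (Apob, Apoc3 and Apom against muscle, Apoa5 and Apom against cortex) involve genes with low counts outside liver. In male muscle Apom had 30 counts in all AL and 28 in all IF libraries together, Apoc3 had 5 and 75, and Apob 1 and 12, and in male cortex Apom had 71 and 58 and Apoa5 4 and 0. The call of Apob was lost with the mouse number as a block (adjusted p 0.0523 by edgeR, against a range of 0.0189 to 0.0523 over 3 alternatives), which leaves 3 of 10 called between liver and muscle. The ratio of Apoe CPM in liver to that in cortex of the same mouse was 9.28 ± 2.53 (SD, n = 7) in AL and 18.7 ± 3.37 (n = 8) in IF males, and 10.4 ± 2.74 (n = 8) and 11.95 ± 2.95 (n = 8) in females. Only the male IF mice stood apart in that ratio.

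Of the members, 6 lie in clusters on chromosome 9 and chromosome 7 of GRCm39. Apoa1, Apoc3, Apoa4 and Apoa5 lie within 43340 bases, from 46139878 to 46183217 of chromosome 9, with 2466 bases between Apoa1 and Apoc3, 5059 between Apoc3 and Apoa4, and 25173 between Apoa4 and Apoa5. In male liver the cluster thus held 2 members that fell (Apoa1 and Apoc3), 1 not called and 1 that rose (Apoa5). Apoc1 and Apoe lie 3448 bases apart on chromosome 7, in a cluster of 27610 bases with Apoc2 and Apoc4, and in male liver Apoe rose where Apoc1 fell. The remaining members lie on other chromosomes, Apom (ENSMUSG00000024391) at 35347973 to 35351026 of chromosome 17, Apob at 8027648 to 8066835 of chromosome 12, Apoa2 at 171052623 to 171053948 of chromosome 1 and Mttp (ENSMUSG00000028158) at 137795615 to 137850729 of chromosome 3.

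**Figure D4:**
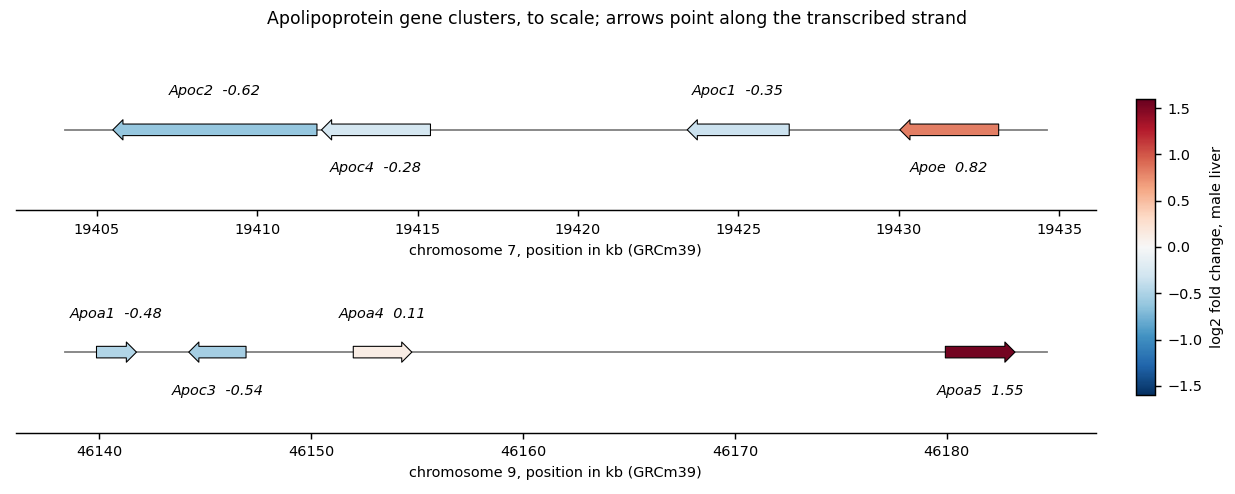
Maps to scale of the apolipoprotein gene clusters of chromosome 7 and chromosome 9 (position in kb, GRCm39), with arrows along the transcribed strand coloured by the log2 fold change in male liver. Apoa5 is the single strong rise of its cluster and Apoe of its own, beside genes with changes at or below 0.11.

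Promoter sequence is shown for Apom and Apoa5, the members with the largest rise in male liver, and for Apoc3, which fell although it shares a cluster with Apoa5. Windows run from 250 bases before to 50 after the first base of the gene's canonical GENCODE transcript. They lie at chr17:35350977-35351276 (minus strand) for Apom, chr9:46179738-46180037 (plus strand) for Apoa5 and chr9:46146509-46146808 (minus strand) for Apoc3, all GRCm39, read along the transcribed strand.
Apom: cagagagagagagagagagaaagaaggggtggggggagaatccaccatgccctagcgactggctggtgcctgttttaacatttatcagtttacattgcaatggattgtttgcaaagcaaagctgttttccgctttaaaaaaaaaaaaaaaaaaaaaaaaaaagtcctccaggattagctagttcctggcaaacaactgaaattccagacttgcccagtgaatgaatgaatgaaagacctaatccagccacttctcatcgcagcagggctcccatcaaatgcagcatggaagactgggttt
Apoa5: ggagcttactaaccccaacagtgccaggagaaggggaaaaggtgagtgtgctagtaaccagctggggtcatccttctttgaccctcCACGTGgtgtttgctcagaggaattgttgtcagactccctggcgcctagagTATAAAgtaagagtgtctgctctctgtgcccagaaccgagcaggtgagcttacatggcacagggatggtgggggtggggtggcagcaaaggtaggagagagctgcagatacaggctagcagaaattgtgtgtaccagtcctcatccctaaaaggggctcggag
Apoc3: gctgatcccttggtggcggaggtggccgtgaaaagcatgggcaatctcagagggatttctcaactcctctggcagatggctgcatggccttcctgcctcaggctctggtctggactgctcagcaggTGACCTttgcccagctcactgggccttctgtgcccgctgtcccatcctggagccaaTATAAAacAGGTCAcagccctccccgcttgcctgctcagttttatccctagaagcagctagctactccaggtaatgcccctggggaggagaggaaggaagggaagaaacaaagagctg
Capitals mark matches to the 6 motifs searched on both strands, CAAAGTCCA (HNF4), AGGTCA (nuclear receptors, read as TGACCT on the other strand), CACGTG (E-box), TGTTTAC (forkhead), TTCNNNGAA (STAT) and TATAAA (core promoter). The Apoa5 window holds CACGTG at -164 and TATAAA at -113, and the Apoc3 window TGACCT at -124, TATAAA at -68 and AGGTCA at -60, counted from the transcript's first base. For Apoa5 that base (46179988) lies inside the gene of the count table, which starts at 46179931. For Apoc3, on the minus strand, it (46146558) also lies inside the gene, whose span ends at 46146934. The positions therefore depend on the start used. The Apom window holds none of the 6. Of 21757 promoters, CACGTG was found in 7.82%, AGGTCA in 15.1% (members Apoc3 and Mttp), TATAAA in 13.2% (Apoa2, Apoa5, Apob and Apoc3), TGTTTAC in 3.15% (Apoa2), TTCNNNGAA in 8.82% (Mttp) and CAAAGTCCA in 0.45% (no member). A match describes letters in the window and not binding.

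Other genes of lipoprotein handling were read from 6 lists in male liver, where the median of all genes tested was 0.06 and 44.6% of them were called, 23.5% higher and 21.1% lower. Of 6 other apolipoprotein genes 5 were tested, 1 rose (Apoh, 0.63) and 3 fell, led by Apof (-1.19) and Apon (-0.90), with a median of -0.62. Of 15 genes for assembly and secretion of apolipoprotein B particles, 5 rose and 4 fell with a median of -0.04, with Mia3 (0.74) and Sar1a (0.60) highest and Pla2g12b (-0.92) and Tm6sf2 (-0.36) lowest. These genes act beside Apob and Mttp. Of 13 genes for receptors and uptake, 3 rose and 3 fell with a median of 0.25, with Mylip (1.85) and Lrpap1 (0.47) highest and Sort1 (-0.86) among those that fell. Of 11 genes for lipases and remodelling in plasma, 5 rose and 5 fell with a median of 0.02. Angptl4 (2.83) and Lipg (1.42) were highest and Angptl8 (-2.42) lowest. Angptl4 and Angptl8 encode inhibitors of the lipoprotein lipase that apolipoprotein A-V favours, and Lipg encodes a lipase. Of 5 efflux pumps 4 rose and 0 fell (Abcg5 0.98 and Abcg1 0.85 highest) with a median of 0.74. Of 14 transcription factors known to act on apolipoprotein genes, 5 rose and 2 fell with a median of 0.17, with Foxo1 (1.57) and Ppara (1.24) highest and Nr1d1 (95% interval -2.46 to -1.46) and Nr1h2 (-0.32) lowest. In female liver edgeR called 0 (0%) of all 15938 genes tested, and so none of any of these lists.

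The genes most like Apom over the 32 liver libraries of both sexes, by Pearson's r of log2 CPM, were Rpl41 (0.972), Lsm4 (0.965), Retreg2 (0.962), Eif6 (0.96) and Mrpl12 (0.956). Within the 16 female libraries alone their r with Apom ran from 0.752 to 0.892. For Apoa5 they included Por (0.914), Aifm2 (0.867) and Nampt (0.866), for which r within the female libraries ran from 0.101 to 0.478. These genes were picked from the highest r of the genes with a mean of at least 1 CPM, and the values are a description of libraries that share sex and diet groups. Por, for one, ran from 85.5 to 163 CPM in male AL and from 870 to 1283 CPM in male IF liver, and from 384 to 663 CPM over the female libraries. Rpl41 has near-identical copies elsewhere in the genome, so its counts are uncertain.

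The limits of these data are of several kinds. RNA levels do not give the amounts of apolipoproteins in plasma, and no protein was analysed here. The male IF mice were killed around the scheduled end of a daily fast that covered the dark phase. Responses to months on the diet, to the last hours without food and to feeding in the light phase cannot be told apart. The regimen of the female mice is not given in the sources used here, which limits what the difference between the sexes can mean. In muscle 7 members and in male cortex 4 had too few counts for a test. The calls of Mttp in liver and of Apoc1 in muscle depend on the settings. In male liver the calls of Apoa1, Apoc1 and Apoc3 were lost with the erythrocyte covariate, which itself differed between the diets. The call of Apoc1 was also lost without IF mouse 16.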

How the data were processed

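RNA from liver, muscle and cortex was sequenced by the authors as poly-A selected, directional libraries and aligned to GRCm39 with HISAT2, and the deposited values are the raw counts per gene that the authors made with featureCounts. The strand setting of the counting and the handling of reads with several matches are not stated, so overlapping genes and near-identical copies are uncertain. From the counts, CPM (count over column total) and RPKM (with the gene length of the table) were computed. The 10 members were found by gene name, and each matched 1 gene. The members and gene lists were chosen with earlier results of these data known.

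Each comparison was fitted on all genes with edgeR 4.0.16 in R 4.3.3 (limma 3.58.1): genes were kept by expression (minimum count 10, minimum total 15), scaled by the trimmed mean of M-values and tested with robust quasi-likelihood F tests, and p-values were adjusted by Benjamini-Hochberg with a threshold of 0.05. IF was compared with AL in each tissue and sex, and interactions of diet with sex and, in males, with tissue were fitted. An interaction is the log2 fold change in females minus that in males, or in liver minus that in the other tissue. The fits were checked on simulated data. Intervals of 95% are the estimate ± 1.96 SE and, like SE, treat mice as the replicates.

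Named beside the members were at most the 2 highest and 2 lowest called genes of each pathway list, the most abundant gene of a marker list, and the 5 genes most like each of the 2 members with the largest called change in male liver; a few genes under this rule are not reported here. Promoters were read from GRCm39 with GENCODE annotation in Python 3.11.15, and figures were drawn with matplotlib 3.10.9.

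Alternatives were RLE size factors, DESeq2 1.42.0, no filter, a filter of 10 counts in every library, the replicate number as a block, 7 male mice per group, without AL mouse 2 and IF mouse 10 (in cortex 6 AL and 7 IF libraries, since AL mouse 1 stayed out), the erythrocyte list as a covariate, and the cortex library of AL mouse 1 included. The adipocyte covariate and the fits without a single library were chosen after seeing the data. The cortex library of AL mouse 1 was left out because its sex genes go against its label. Among the 96 libraries no 2 columns were identical.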

Additional observations from a re-analysis of the deposited data

Results flagged for a closer look

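A single library lay far above the rest of its group in 7 of 79 pairs of a member and a group of mice that were tested, where chance marks about 1 in 20 groups. In male AL liver, mouse 6 was high in Apoa2, at 20350 CPM with the nearest mouse at 16170 CPM, and in Apoc1, at 14050 CPM with the nearest at 10590 CPM, and mouse 2 was high in Apom, at 53.72 CPM with the nearest at 34.36 CPM. In female liver Apoa4 stood at 133.0 CPM in AL mouse 28 (nearest 66.09 CPM) and at 113.5 CPM in IF mouse 40 (nearest 78.51 CPM). In muscle Apoc1 stood at 12.62 CPM in male IF mouse 12 (nearest 6.072 CPM) and at 2.638 CPM in female AL mouse 26 (nearest 1.177 CPM).

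The response to IF in liver differed between the sexes by edgeR's test of the interaction for 6 of the 10 members, beside 23.7% of 17658 genes tested. This interaction was not fitted with the erythrocyte markers, of which 2 of 5 were also called in it. The log2 difference, female minus male, was 0.83 for Apoa1, -1.44 for Apoa5, 0.541 for Apoc1, 0.844 for Apoc3, -0.626 for Apoe and -2.56 for Apom. Between tissues of male mice it differed for Apoc1, by -2.14 (liver minus muscle, not fitted with the adipocyte markers that moved with Apoc1 in muscle), and for Apoe, by 0.866 (liver minus cortex).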

How the results depend on the processing

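Of 379 values of members under the alternatives, 354 kept their direction and their side of the threshold, 15 lost the call and 10 changed sign, and the cause was not tested. In male liver Apom ran from 2.32 to 2.79, Apoa5 from 1.51 to 1.72 and Apoe from 0.69 to 0.83 on the log2 scale over 9 alternatives, all called.

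With the erythrocyte covariate male liver had 4284 genes and 3 members called and Apob was at -0.0086. Without male IF mouse 16 or 9 Apoa4 ran from -0.18 to 0.19, and without female AL mouse 28 female Apob was at 0.0097, fits chosen after seeing the data. Female Apob was at 0.0026 with RLE factors and with DESeq2. In male muscle 0 members were called with 7 mice per group (Apoc1 1.84) and 0 with the adipocyte covariate (Apoe -0.19), and without a filter Apoc1 missed the threshold too (adjusted p 0.0771 by edgeR, against 0.000196 to 0.764 over 7 alternatives) while Apoc3 passed it. In male cortex the genes called were 2259 with DESeq2, 498 without AL mouse 2 and IF mouse 10 (6 AL and 7 IF libraries) and 294 with the library labelled AL mouse 1 included, where Apoc3 was at 0.029. DESeq2 called 6 genes in female liver, 91 in female muscle and 73 in female cortex, and 5 were called in female muscle without a filter. For the interaction of sex and diet, DESeq2 called 706 genes in cortex, 220 were called there without a filter, and 1 member was called in muscle without a filter (Apoa4, which had 7 counts over all muscle libraries). Without a filter the difference of Mttp between liver and muscle was -0.0105.

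AL and IF mice share only a number: same-numbered libraries had median correlations of their deviations of 0.0158 in male liver, 0.013 in male muscle, -0.101 in male cortex, -0.0184 in female liver, 0.0743 in female muscle and 0.0606 in female cortex, with a negative pair in each. With the replicate block 7090 genes and 6 members were called in male liver (Mttp lost), 382 genes in male cortex and 0 in female cortex, Apoa4 in male liver was at -0.041 and Apoc3 in male cortex at 0.28. The block also took the call of Apob between liver and muscle and changed no other call of a member. Depth limits the members outside liver, where 7 in muscle and 4 in male cortex had too few counts for a test.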
